A study of Drosophila melanogaster with 2 samples.

Results

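The nuclear genes for mitochondrial ribosomal proteins were examined for binding by DREF, a promoter-binding protein named for the DNA element it recognises. Members were all protein-coding genes of the Ensembl annotation of the fly genome whose symbol begins with mRpL or mRpS and a digit. This gave 73 of the 13945 protein-coding genes on the 6 chromosome arms, with 47 genes named for the large subunit and 26 for the small subunit. Within the list, membership was set by symbols alone and used no peak, but the list itself was chosen with earlier results of these data known. A pair of small-subunit genes known by other symbols, tko and bonsai, fell outside this definition and are given separately.

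The assay was ChIP-seq, in which DNA bound by a protein is precipitated with it and sequenced. The material was whole embryos of Drosophila melanogaster aged 0 to 24 hours. Both samples came from a transgenic Dref-GFP strain that expresses a Dref-eGFP fusion, and an anti-GFP antibody was used for the precipitation. The 2 samples are labelled as biological replicates of 1 group, so there was no second condition, treatment or genotype. Embryos were not sexed, and the promoter that drives the fusion protein and its level relative to the endogenous protein are not given in the labels. The values average over all embryonic cell types and stages, and no expression was measured, so the tissue could not be checked against its markers.

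Mitochondria carry their own ribosomes, which translate the few proteins encoded by mitochondrial DNA, all of them parts of the respiratory chain and the ATP synthase. The proteins of these ribosomes are encoded in the nucleus, made in the cytosol and imported. DREF is a zinc finger protein of flies that recognises the palindrome TATCGATA, the DNA replication-related element (DRE), and is best known at promoters of DNA replication and cell proliferation genes.

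The deposited data are lists of peaks in dm6 coordinates, each peak with a summit and the authors' signal. The signal is a value of peak strength whose scale and correction for depth are not described in the sources used here, and how deeply the libraries were read is not known. The conservative list draws on both replicates and holds 5355 peaks. The replicate 1 list has 3812 and the replicate 2 list 3990. A bound gene is one with a summit at most 250 bp from any of its transcript starts.

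The sequences that carry the clearest DREF signature were the starts of the strongest members with an exact DRE. Shown here are 8 of the 9 strongest such members, each as 28 bases on the strand of the gene from the RefSeq copy of the Release 6 assembly. Capitals mark the DRE, which reads the same on both strands. In order of signal, they lie at chr2L:16329096-16329123, chrX:15761235-15761262, chr2L:203761-203788, chr3L:8956804-8956831, chr3R:8674074-8674101, chr2L:20097240-20097267, chrX:1890214-1890241 and chr2L:13835064-13835091.
mRpL4: taatctagccTATCGATAgaccttaccg
mRpL3: atatcgctgaTATCGATActgtggccga
mRpL10: aatatctggcTATCGATAagaatgaata
mRpL12: cctggctgttTATCGATAaactgctcac
mRpL19: tataaagggtTATCGATAactctgctgt
mRpS18B: cccctgaatgTATCGATAgtcatgtatc
mRpL16: atcggtggtcTATCGATAtatgttttta
mRpS23: actctgatggTATCGATAggcaccggct

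The centre of the DRE lay 22.5 bp after the start of mRpL4, 26.5 bp after that of mRpL12 and 0.5 bp after that of mRpL3. In the other 5 genes it lay before the start, from 28.5 bp in mRpL16 to 0.5 bp in mRpS18B. mRpS29, whose signal of 1547 placed it between mRpL12 and mRpL19, also had a DRE, centred 1.5 bp after its start. Its sequence is not shown here, nor are those of mRpL42 and mRpS28 among the strong members without a DRE. The element thus sat almost at the start itself in mRpL3 and mRpS18B.

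Strong members without an exact DRE carried parts of it. Shown next are 4 of them and mRpL47, which is described further on. Capitals mark CGATA, the 3′ part of the DRE, its inner 6 bases ATCGAT, and the E-box CAGCTG, on either strand, where TATCG is CGATA read from the other strand. The stretches lie at chr2L:1710384-1710413, chr3R:30423944-30423973, chr3R:22618412-22618491, chr3R:11407838-11407917 and, on the minus strand, chr3R:9515909-9515988. For mRpL48 and mRpS18C only 30 bases are given, because a neighbouring gene's exon covers part of the 80 bases before the start. It covers 40 of them at mRpL48 and 36 at mRpS18C. The 30 bases of mRpL48, with all their marked matches, lie inside that exon, and those of mRpS18C lie outside it. The others show the 80 bases before the start.
mRpL48: actTATCGggccTATCGttcttCGATAaca
mRpS18C: acacggagtagtaATCGATATCGttctacg
mRpL45: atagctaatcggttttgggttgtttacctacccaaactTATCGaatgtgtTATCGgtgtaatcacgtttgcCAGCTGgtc
mRpL40: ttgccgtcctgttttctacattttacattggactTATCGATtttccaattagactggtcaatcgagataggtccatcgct
mRpL47: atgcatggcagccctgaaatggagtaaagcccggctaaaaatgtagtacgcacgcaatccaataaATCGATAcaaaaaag

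In the conservative list 51 of 73 members were bound (69.9%), against 4272 of all 13945 protein-coding genes (30.6%). The replicate 1 list bound 45 members (61.6%), where it bound 26.9% of all genes. The replicate 2 list bound 48 members (65.8%), where it bound 28.7% of all genes. The thresholded list of both replicates bound 52 members, beside 31.4% of all genes. In each of these lists the share of members bound exceeded the share of all genes bound, and the order of the lists was the same for members and for all genes. No test was made of the list as such, since its members were chosen with earlier results of these data known.

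Of the 51 bound members, 44 were bound in both replicate lists as well. mRpL18 was bound in the list of replicate 1 and not that of replicate 2, and mRpS11 and mRpS30 in that of replicate 2 and not that of replicate 1. mRpS2, mRpL50, mRpS21 and mRpL35 were bound in neither replicate list, and all 4 stood among the 7 weakest bound members by signal. The conservative list left out mRpL15 and mRpL9, both of which the replicate 2 list called.

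Large-subunit genes were bound in 36 of 47 cases (76.6%) and small-subunit genes in 15 of 26 (57.7%). The same order held in replicate 1, with 34 and 11 bound, and in replicate 2, with 35 and 13 bound. Both shares exceeded the 30.6% of all genes. The symbols are not an exact guide to position in the ribosome: the mammalian counterparts of mRpS18A and mRpS30 sit in the large subunit.

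**Figure D1:**
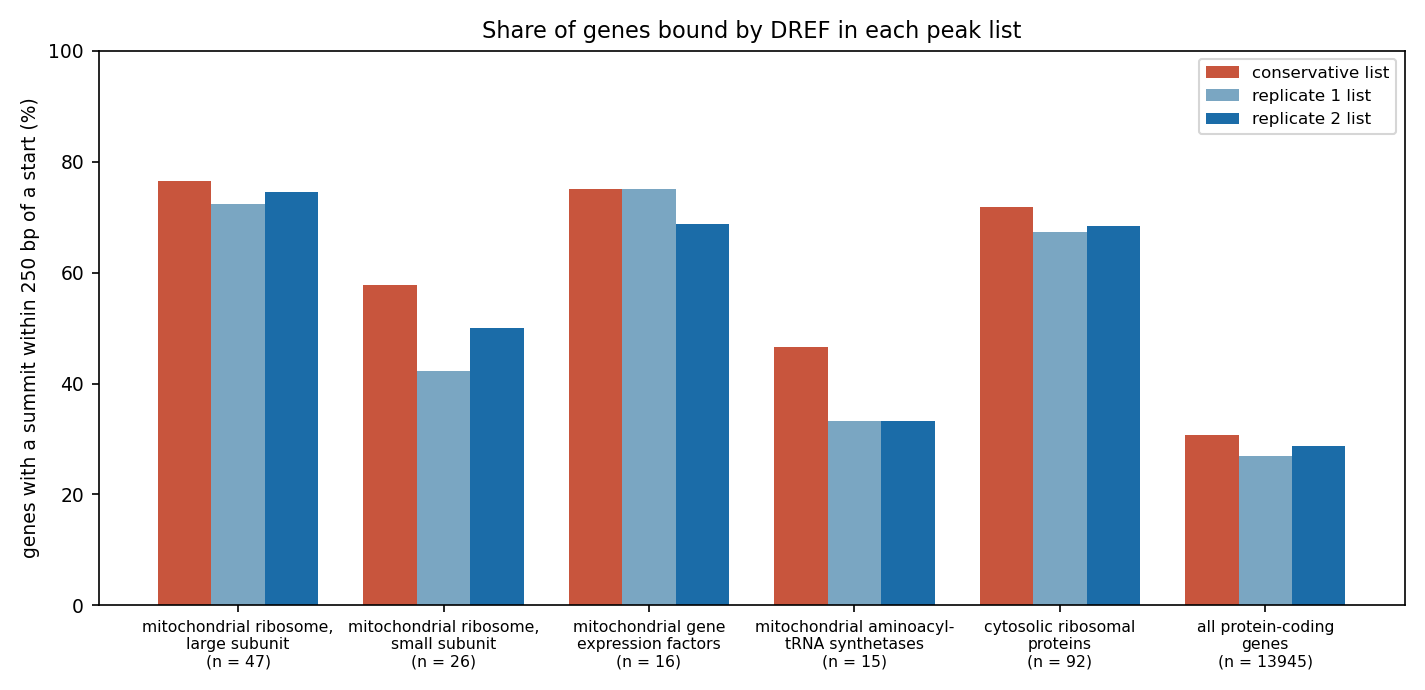
Share of genes with a summit within 250 bp of a start (%), for the 2 subunits of the mitochondrial ribosome, the other mitochondrial lists, cytosolic ribosomal proteins and all protein-coding genes, in the conservative list and in each replicate's own list. Large-subunit genes had 76.6% bound and small-subunit genes 57.7% in the conservative list, against 30.6% of all genes.

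The strongest binding was at large-subunit genes. mRpL4, whose protein lines the exit tunnel of the ribosome, had a signal of 1300 in replicate 1 and 2439 in replicate 2, and of 3723 in the conservative list. mRpL48, a protein with no bacterial counterpart, had 1324 in replicate 1 and 2093 in replicate 2. mRpL3, a core protein of the large subunit, had 1159 in replicate 1 and 1842 in replicate 2. Among the 51 bound members these 3 held the top places in both replicates, with mRpL48 first in replicate 1 and mRpL4 first in replicate 2.

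The genes for the stalk, the flexible arm that recruits translation factors, were both in the upper group. mRpL10 had signals of 813 in replicate 1 and 1241 in replicate 2, and mRpL12 had 720 and 1104 in the same order. Both carried an exact DRE. mRpL11, whose protein forms the base of the stalk in bacteria, was not bound.

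Among other large-subunit genes, mRpL42 had a conservative-list signal of 2204 and mRpL45 one of 1933. The mammalian counterpart of mRpL45 lies near the tunnel exit and holds the ribosome to the inner membrane. mRpL40 (1487), mRpL19 (1441), mRpL53 (1415) and mRpL16 (1271) followed. mRpL19 and mRpL16 have bacterial counterparts, and mRpL42, mRpL45, mRpL40 and mRpL53 have none.

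Small-subunit genes took 4 of the 15 highest places. mRpS18C had a signal of 951 in replicate 1 and 1420 in replicate 2, and mRpS18B one of 531 and 815 in the same order. These 2 are counterparts of the bacterial protein S18, as is mRpS18A, also bound with a signal of 692 in the conservative list. mRpS29, a GTP-binding protein, had 615 in replicate 1 and 941 in replicate 2. mRpS28 had 597 in replicate 1 and 930 in replicate 2. The median over bound small-subunit genes was 596, against 815 over bound large-subunit genes, and the ranges of 96.0 to 2364 and 81.9 to 3723 overlapped over most of their length.

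Over all bound members the conservative-list signal ran from 81.9 at mRpL35 to 3723 at mRpL4, with a median of 692 and quartiles at 265 and 1379. Bound genes that were not members had a median of 909 and a range of 2.58 to 8990. Of the bound members, 22 of 51 lay above that median. The share of genes bound was thus higher among members, while the median signal of those bound was lower. In replicate 1 the medians were 263 at bound members and 357 at bound non-members, and in replicate 2 they were 449 and 564.

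The weakest bound members were mRpS11 (119.8), mRpL50 (101.9), mRpS30 (100.7), mRpS21 (96.0) and mRpL35 (81.9). mRpL35 had 39.3 in replicate 1 and 44.5 in replicate 2, and its q-value in the conservative list was 0.333. In all, 4 bound members had a q-value over 0.05, while 39 of 51 shared the ceiling of 3.78 on the −log10 scale.

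Signals were higher in replicate 2 than in replicate 1 at 47 of 51 bound members, with a median ratio of 1.52. At bound non-members the median ratio was 1.58, and 91.9% had the higher value in replicate 2, so the shift was common to the whole lists. Across the 51 members the log2 signals of the 2 replicates had a Pearson r of 0.979 and a Spearman rho of 0.985. Members share both libraries, and their peaks had already passed a threshold on reproducibility, so these are descriptions. The ratio was highest at mRpL1 (2.65), mRpS14 (2.22) and mRpL49 (1.96), and lowest at mRpL23 (0.827), mRpL24 (0.838) and mRpS10 (0.854).

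**Figure D2:**
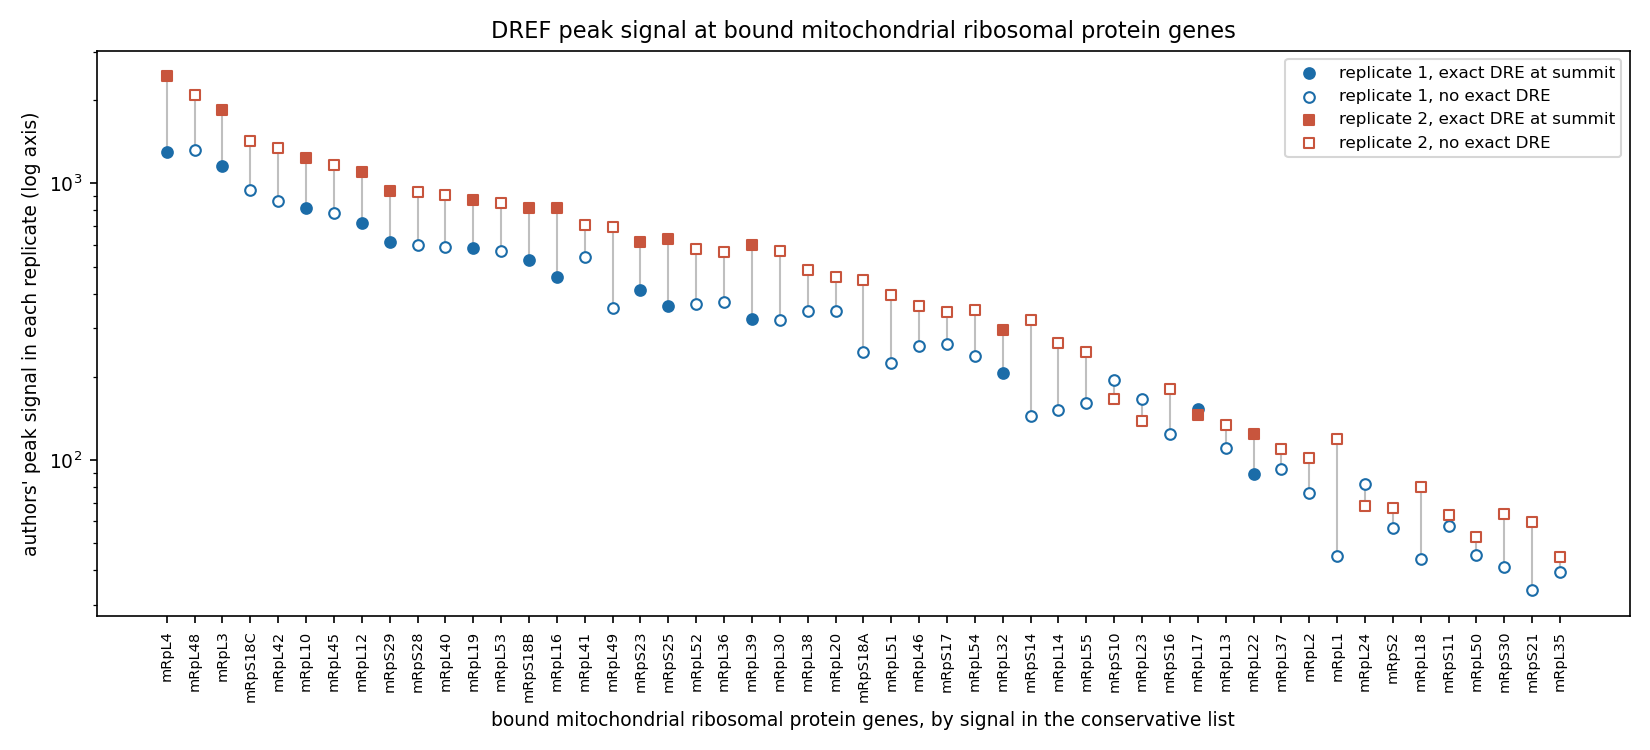
Authors' peak signal in replicate 1 (circles) and replicate 2 (squares) at each of the 51 bound members on a log axis, in order of the conservative-list signal. Filled symbols mark an exact DRE within 100 bp of the summit, which 11 of the 25 strongest and 3 of the 26 weakest members had.

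Summits lay just before the member's start. The median distance was 32 bp upstream, with a range from 232 bp upstream to 12 bp downstream, and 46 of 51 summits were upstream. The median over all bound genes was 39 bp upstream, and 89.7% of their summits were upstream, beside 90.2% for members. Of the member summits 40 lay within 60 bp of the start and 8 lay over 100 bp away. These are the strongest summit of each member, and with any summit counted 44 members had one within 100 bp. The members nearest to the limit of 250 bp were mRpS21 at 232 bp and mRpL41 at 224 bp on the inside, and mRpL34 at 293 bp, mRpL11 at 320 bp and mRpL33 at 328 bp on the outside. Of the 8 far summits, 7 also lay within 250 bp of the start of another gene.

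Motifs were searched as exact letters on both strands within 100 bp of each summit. The DRE, TATCGATA, was found at 14 of 51 bound members (27.5%), against 26.7% of all bound genes. It was present at 10 of 36 large-subunit and 4 of 15 small-subunit genes, and no member had more than 1. Beside the 8 shown, these were mRpS29, mRpS25, mRpL39, mRpL32, mRpL17 and mRpL22. With up to 1 mismatch the DRE was found at 27 members (52.9%), against 57.6% of all bound genes. The inner ATCGAT, which every DRE contains, occurred at 23 members (45.1%), against 53.4%. CGATA, which every DRE also contains, occurred at 37 members (72.5%), against 75.5% of all bound genes. For each of these elements the share of bound members was near that of all bound genes.

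Peaks with the element had the higher median signal. Members with an exact DRE had a median signal of 1307 (range 215 to 3723), and the 37 without had a median of 586 (range 81.9 to 3398). The medians were 495 and 225 in replicate 1, and 816 and 344 in replicate 2, so the order was the same in each, though the ranges overlapped widely. The 23 members with CGATA but no DRE had a median of 835, and the 14 without CGATA had a median of 188. All 15 of the strongest members had CGATA, and 8 of them had the full DRE. Bound non-members showed the same order, with medians of 1698 with a DRE, 559 without one and 155 without CGATA.

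Among the 14 members without CGATA in the summit window, mRpL41 was the strongest at 1188, and the lowest was mRpS21 at 96.0. The window of mRpL41 did hold ATCGAT, and the promoters of mRpL41, mRpS14 and mRpL2 held CGATA outside the window. Motif 1 of fly core promoters, GGTCACACT, was found at 6 of all 51 bound members (11.8%), against 9.43% of all bound genes. Of these 6, 4 were among the 14 members without CGATA. The share among all bound genes without CGATA was not computed, so that count has no background beside it. TATAAA was found at 15 of 51 (29.4%), against 25.3%. A missing match says only that these letters were not in the window searched.

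The E-box CAGCTG, another motif of fly core promoters, was found at 24 of 51 bound members (47.1%), against 21.6% of all bound genes and 12.1% of bound cytosolic ribosomal protein genes. Other bound genes of mitochondrial gene expression had it as well, at 6 of 12 factors and 2 of 7 mitochondrial aminoacyl-tRNA synthetases. It stood at 5 of the 14 members with a DRE and 19 of the 37 without. In promoters, taken as 250 bases before to 50 after a start, it was found at 41 of 73 members (56.2%), against 22.3% of all protein-coding genes. The promoter shares were 9 of 16 for the factors and 8 of 15 for the synthetases, so a high share was not particular to members. Bound and unbound members had it alike, with 29 of 51 (56.9%) and 12 of 22 (54.5%), whereas over all genes the shares were 31.3% of bound and 18.3% of unbound genes. The difference from other genes was not tested.

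**Figure D3:**
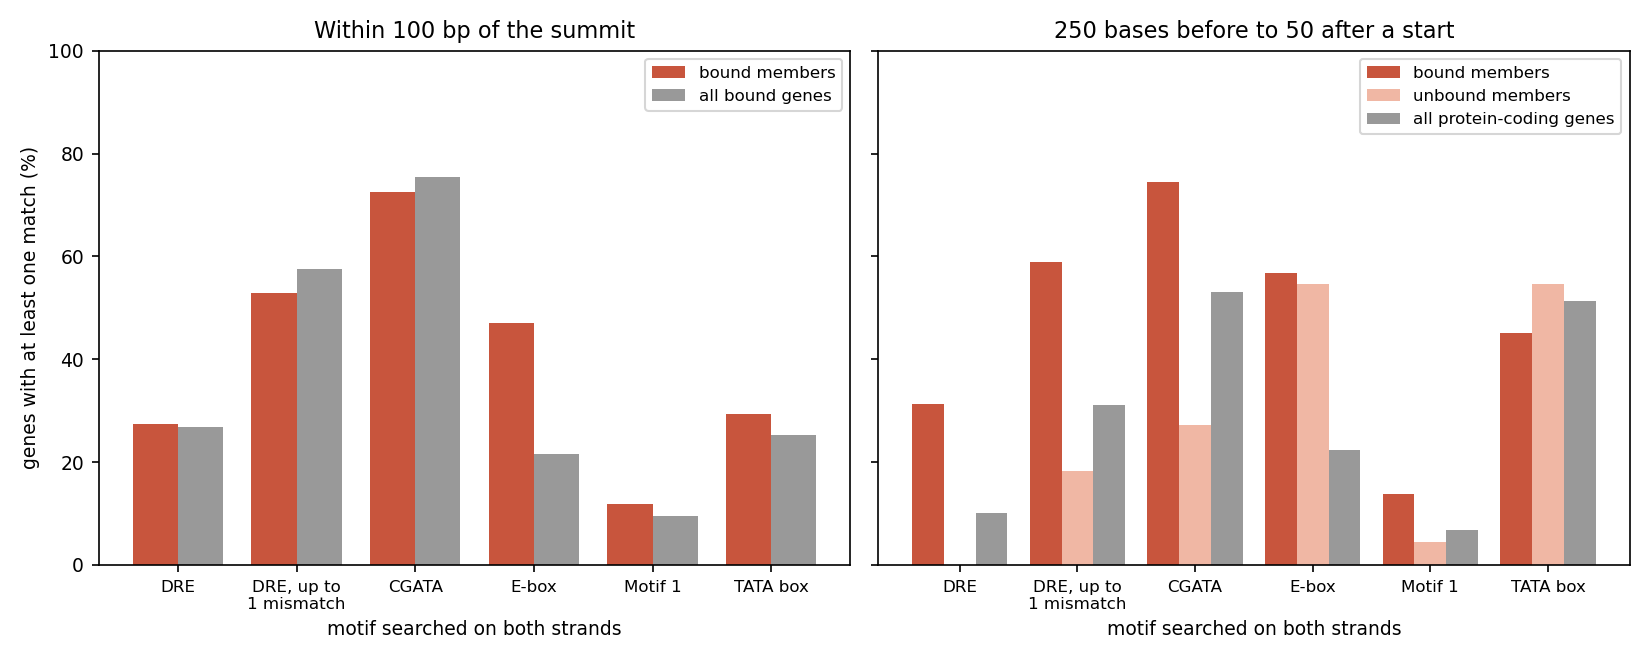
Share of genes with at least 1 match to each motif (%), within 100 bp of the summit for bound members and all bound genes (left), and in promoters for bound members, unbound members and all protein-coding genes (right). DRE and CGATA shares at summits were near those of all bound genes, while the E-box was at 47.1% of bound members, against 21.6% of all bound genes.

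The promoter view set the DRE against binding itself. An exact DRE lay in the promoter of 16 of 73 members (21.9%), against 10.2% of all genes. All 16 of these members were bound, as were 1241 of the 1417 genes (87.6%) of the whole genome with a promoter DRE. In mRpL20 and mRpS14 the promoter DRE lay outside the window around the summit. Of the 57 members with no promoter DRE, 35 were bound (61.4%), against 24.2% of all such genes. No unbound member had an exact DRE in its promoter. With up to 1 mismatch 4 of 22 had one (18.2%), and 6 of 22 had CGATA (27.3%). Over all unbound genes the shares were 1.82% with an exact DRE, 16.7% with up to 1 mismatch and 40.3% with CGATA. For the DRE the unbound members were thus near the share of all unbound genes.

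Many members shared their summit with a neighbour. At 27 of 51 bound members (52.9%) the summit also lay within 250 bp of a start of another protein-coding gene, against 40.3% of all bound genes and 33.3% of bound cytosolic ribosomal protein genes. The share was 58.3% for bound factors of mitochondrial gene expression (7 of 12) and 42.9% for bound mitochondrial aminoacyl-tRNA synthetases (3 of 7). At 11 of the 27 it was nearer to the other gene, and position alone cannot assign such a peak. No 2 members shared a peak, so the 51 calls rest on 51 distinct peaks. Several neighbours have known roles in mitochondria. These neighbours, chosen after their names were seen, were ATPsynD (an ATP synthase subunit) beside mRpL55, Mitofilin (inner membrane organisation) beside mRpL35, Taz (cardiolipin remodelling) beside mRpL18 and qless (coenzyme Q synthesis) beside mRpL32.

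An exact DRE was found at 2 of 27 shared summits, those of mRpL39 with Prosbeta2 and mRpL32 with qless, and at 12 of 24 summits with the member's start alone. The search covered 100 bp around the summit, and 7 of the 27 shared summits but 1 of the 24 lone ones lay over 100 bp from the member's start. At mRpL20, a shared summit, the promoter DRE was out of reach for this reason. The promoter DRE of mRpS14, whose summit was shared with Naa15-16, was also outside the window. Its summit lay 7 bp from the nearest of its 2 starts. At bound non-members the DRE was at 440 of 1694 shared and 688 of 2527 lone summits, close to equal shares. The median signal was 451 at shared and 1035 at lone summits of members, and 1004 and 856 at those of non-members. Strong shared peaks existed too, at mRpL48 with CG17660, mRpS18C with CG15535 and mRpL42 with PIG-N. The E-box was found at 16 of 27 shared and 8 of 24 lone summits of members, and this split was not computed for non-members.

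**Figure D4:**
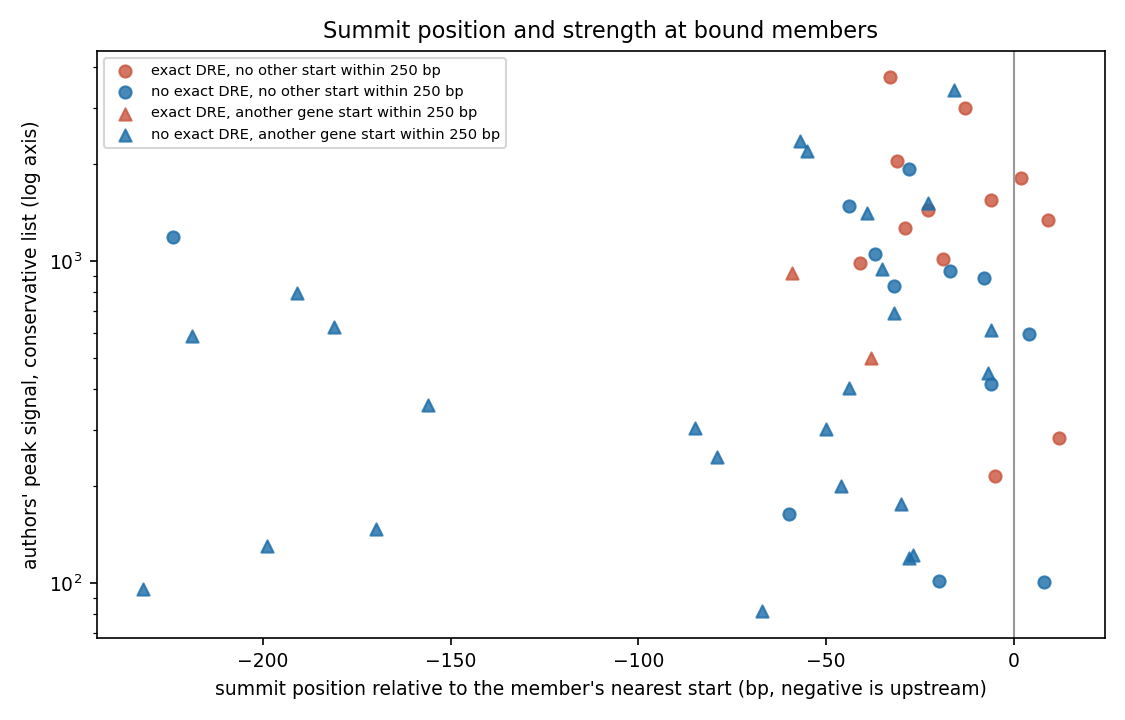
Position of the summit relative to the member's nearest start (bp, negative is upstream) against the authors' signal in the conservative list on a log axis, for the 51 bound members. Triangles are the 27 summits that also lie within 250 bp of another gene's start and circles the 24 others, and red marks an exact DRE. The summits with a DRE lie between 59 bp upstream and 12 bp downstream of the start.

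Members were bound on each large arm, with 10 of 11 on X, 9 of 12 on 2L, 10 of 12 on 2R, 9 of 17 on 3L and 13 of 21 on 3R. The shares of all genes bound were 40.2% on X, 28.0% on 2L, 31.2% on 2R, 26.9% on 3L and 29.5% on 3R. Arm 4 holds no member.

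The 22 unbound members were split evenly, with 11 in each subunit by name. The large-subunit genes were mRpL9, mRpL11, mRpL15, mRpL21, mRpL27, mRpL28, mRpL33, mRpL34, mRpL43, mRpL44 and mRpL47. All but mRpL43 and mRpL44 have bacterial counterparts. The small-subunit genes were mRpS5, mRpS6, mRpS7, mRpS9, mRpS22, mRpS24, mRpS26, mRpS31, mRpS33, mRpS34 and mRpS35. Of these mRpS5, mRpS6, mRpS7 and mRpS9 belong to the set shared with bacteria, whereas mRpS22, mRpS26, mRpS31, mRpS33, mRpS34 and mRpS35 are specific to mitochondria.

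At 10 of the 22 none of the 4 ranked lists, which hold 118744 to 127495 peaks each, had a summit within 250 bp of a start. The nearest conservative-list summit was over 1000 bp away at 18 of the 22. The summit 320 bp from mRpL11 had a signal of 2970 and lay at HtrA2, that 328 bp from mRpL33 had 2498 and lay at norpA, and that 293 bp from mRpL34 had 149 and lay at Dg. The fourth was the summit 754 bp from mRpL27, with a signal of 313.

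The ranked lists, which hold peaks before the threshold, were read at the score of 830 that every thresholded peak reaches. In the ranked list behind the conservative list, 52 members had such a peak, beside 31.2% of all genes. In the other ranked list of both replicates 53 had one, beside 32.0% of all genes. The second list added mRpL15, mRpL9 and mRpS24 and lost the weakly bound mRpS11 and mRpL35. mRpL15 had a signal of 30.4 in replicate 1 and 89.3 in replicate 2, mRpL9 had 26.1 and 73.1, and mRpS24 had 45.4 and 68.1, in the same order. All 3 were weak in both replicates, with the lower value in replicate 1.

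mRpL47 was different. Its protein belongs to the family of bacterial L29, near the exit tunnel. Every ranked list held a peak with its summit 55 bp upstream of the start of mRpL47, at chr3R:9515775-9516153, with the top score of 1000. Its signal was 2208 in replicate 1, 3762 in replicate 2 and 5941 in both ranked lists of the pair, above every bound member. No thresholded list held it, so it counted as unbound here. Placed in the conservative list by its signal it would have ranked 21st. The window around the summit held 3 matches to CGATA and an E-box but no exact DRE, and the summit also lay within 250 bp of starts of CG8176 and Kdm3. It was 1 of 153 peaks on the arms, out of 5445 with a score of 830 or more in that ranked list, that the conservative list left out, and 34 of the 153 had a signal over 1000. Per the deposited notes, the thresholded lists were made with a further input file that the ranked lists were not. The notes do not say what that file holds, and its part in the omission was not tested. The unbound call of mRpL47 therefore describes the thresholded lists and not a lack of signal.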

How the data were processed

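Peak lists of anti-GFP ChIP-seq from 2 replicates were used. Per the notes deposited with the files, each replicate had a ranked and a thresholded list from its own alignments, and the combined alignments gave 4 further lists, ranked, thresholded and conservative, all based on the irreproducible discovery rate. The deposited columns gave a score up to 1000, the authors' signal, the −log10 of a q-value and the summit as an offset from the peak start. The aligner, the peak caller and read depth were not given in the sources used here, so no interval for counting error was computed. Fragments were 200 to 800 bp, per the labels.

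Gene starts came from Ensembl release 115 (BDGP6.54) and sequence from RefSeq Release 6, whose 6 arm lengths match dm6. Bound genes had a summit no more than 250 bp from any transcript start. The summit of highest signal represented a gene. Replicate signals at a peak came from the overlapping peak of nearest summit in each ranked list. Motifs were exact matches on both strands within 100 bp of the summit. CGATA and ATCGAT are parts of the DRE, so those counts overlap. With 1 group there was no contrast between samples, and shares stand beside those of all genes without a test. Named genes were every unbound member, the 15 strongest and 5 weakest bound members, those whose call differed between lists, and the 3 highest and lowest replicate ratios. Other genes named were chosen after their values were seen, among them mRpL41, mRpL20, the neighbouring genes and the remaining members with a DRE. The members and lists were chosen with earlier results of these data known. The symbols mtRNApol, Polrmt and Dap3 had no match in the annotation. Functions that assign summits and find motifs were tested on simulated data. Python 3.11.15, numpy 2.4.6, scipy 1.17.1 and matplotlib 3.10.9 were used.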

Additional observations from a re-analysis of the deposited data

How the results depend on the processing

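Of 73 alternative values, 62 stayed within the limits set for a change, 11 moved and 0 reversed. Bound members numbered 51, beside 4221 of the other genes. They numbered 45 to 48 when either replicate was left out (3705 to 3958 other genes), 44 within 100 bp (3522), 54 within 500 bp (4752) and 47 at a q-value of 0.05 or less (3856). With only peaks above the median signal 36 members and 2949 other genes were bound. The exact DRE count of 14 became 27 with 1 mismatch. The median percentile of member signals within their list was 61.4, below the 66.3 over all bound genes. The member value was 50.6 to 52.5 when either replicate was left out and 49.8 at a q-value of 0.05 or less. Each of these percentiles was taken within its own shorter list. No value over all bound genes is given for those lists, so a shift common to all genes cannot be told apart. It was 65.2 within 100 bp and 66.0 within 500 bp. The median summit distance of -32 bp became -35.5 to -33 bp without either replicate, -28.5 bp within 100 bp and -38.5 bp within 500 bp. Shared summits numbered 27, and 15 within 100 bp or 41 within 500 bp. No paired analysis was possible because the study has 1 group. Read depth is unknown, so a missing peak cannot be told from too few reads.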

Other observations

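Other genes of mitochondrial gene expression were bound to different extents. Of 16 factors of mitochondrial translation and transcription, 12 were bound (75%, beside 30.6% of all genes). Their median signal was 1348, and the summits of 8 of the 12 held an exact DRE (66.7%, beside 26.7% of all bound genes). mTTF, a transcription termination factor, had signals of 1580 in replicate 1 and 2183 in replicate 2. mRF1, a peptide release factor, had 1338 in replicate 1 and 2322 in replicate 2. The elongation factor genes mEFTs (1830), mEFG1 (1491), mEFTu1 (710) and mEFTu2 (104) were bound in the conservative list, and mEFTu2 was missing from the replicate 2 list. The initiation factor gene mIF3 (844) was bound, and mIF2, mRRF1, mTerf3 and mtTFB1 were not. Of 15 mitochondrial aminoacyl-tRNA synthetase genes 7 were bound (46.7%), 5 in each replicate list, led by LeuRS-m (2483) and AspRS-m (1094). AlaRS-m and ArgRS-m, at 96.7 and 69.7, were in neither replicate list. The small-subunit genes bonsai (2045) and tko (878) were bound in both replicate lists. With them, 53 of 75 mitochondrial ribosomal protein genes and 17 of 28 small-subunit genes were bound. Of 92 cytosolic ribosomal protein genes 66 were bound (71.7%), with a median signal of 973.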
